A study of Homo sapiens with 12 samples.

Results

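The genes described here are the core of HLA class II antigen presentation. They are CIITA, the transactivator that class II genes depend on, the classical chains HLA-DRA, HLA-DRB1, HLA-DPA1, HLA-DPB1, HLA-DQA1 and HLA-DQB1, the invariant chain CD74, and HLA-DMA and HLA-DMB, which form the peptide exchange factor HLA-DM. They are 10 of the 60675 gene IDs in each count file, found by their GENCODE symbol on the primary assembly. The group was chosen by measured values, namely the differences between resistant and parental cells in these same libraries, so the levels, fold changes and calls of these 10 genes are a description and carry no p-value.

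RNA was sequenced from SUDHL6 and SUDHL16, established human diffuse large B-cell lymphoma (DLBCL) lines from ATCC, and from a venetoclax-resistant line derived from each. Venetoclax (ABT-199) inhibits the anti-apoptotic protein BCL2, and the question of the comparison was what differs once cells have become resistant to it. The 4 groups, SUDHL6-parental, SUDHL6-resistant, SUDHL16-parental and SUDHL16-resistant, had 3 libraries each, 12 in all. The resistant lines arose under slowly rising venetoclax, grew at 10 times the original IC50 or more and were maintained in the drug. For experiments the cells were moved to fresh media, and the study does not say whether drug was present when RNA was taken. Each resistant line is 1 derived line, so a difference belongs to that line and not to resistance in general. SUDHL6 RNA went through the NEBNext Ultra II kit to a HiSeq instrument, while SUDHL16 RNA was depleted of ribosomal RNA (Illumina Stranded Total RNA Prep, RiboZero Plus) and read on a NovaSeq. The kit and the sequencer thus cannot be told apart from the line. Nothing in the labels says that the libraries of a group came from separate cultures, so the p-values given for other genes measure only the spread between these libraries, which may be technical.

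Total counts ran from 33992784 to 40885665 in the SUDHL6 libraries and from 4131927 to 22068221 in the SUDHL16 libraries. The lowest total was that of CE-26, a SUDHL16-parental library that stood apart. Only 55.4% of its counts lay on protein-coding genes, and 31.9% lay on IDs with no match in GENCODE, against at most 5.06% in the other libraries. The fold changes and list medians of SUDHL16 are therefore given with and without CE-26. All 8 B cell markers were detected in every group, with summed levels of 4110 to 4178 CPM (counts scaled to the TMM-adjusted library size) in parental and 4244 to 4272 CPM in resistant SUDHL6. In SUDHL16 their sums did not overlap either, at 2393 to 3542 CPM in parental and 3890 to 4176 CPM in resistant libraries, and BLK, named after its values were seen, went from 26.5 to 40.8 CPM up to 88.6 to 167 CPM. In SUDHL16, markers of other cells moved with the groups as well. Of 8 fibroblast and epithelial markers, 7 had more than 3 counts in some parental library and 3 in some resistant library, with sums of 19.8 to 54.8 CPM in parental and 0.425 to 0.737 CPM in resistant libraries. The number and the top of the range rest on CE-26, since only DCN and COL1A2 passed 3 counts in either of the other parental libraries. DCN, at 19.7 CPM, made up nearly all of the sum in each of those, and the defining marker COL1A1 was at 0 in all 3 parental libraries. Of 8 monocyte and dendritic markers, 7 passed 3 counts in parental and 3 in resistant libraries, with sums of 40.9 to 63.7 and 23.6 to 30.5 CPM. Of the 7, FCGR1A and ITGAM passed 3 counts in CE-26 alone. Most of the sum was CD1C, with CLEC10A at 0 in both. The T cell marker sums, 18.6 to 33.4 CPM in parental and 23.3 to 28.8 CPM in resistant libraries, overlapped. Of their genes, TRAC and CD3E, named after their values were seen, did not overlap and went opposite ways. TRAC, most of the sum in parental libraries, was at 16.9 to 19.2 CPM there and at 10.2 to 15.7 CPM in resistant ones, and CD3E at 1.16 to 4.48 and 10.8 to 13.4 CPM. The part of these markers in the class II differences was not tested.

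HLA class II molecules are pairs of an alpha and a beta chain that carry peptides from endosomes to the cell surface, where CD4+ T cells read them. CD74 escorts the new pair and blocks its groove, and HLA-DM exchanges the remnant of CD74 for peptide. B cells make class II constitutively. The genes are switched together by CIITA, which does not bind DNA itself but docks on the factors RFX, NF-Y and CREB at the X and Y boxes of class II promoters, and loss of class II from the surface is a known feature of some DLBCL.

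An X box followed by a Y box is the known layout of class II promoters, and stretches that hold either box are shown here because CIITA acts through them. RefSeq promoter windows (GRCh38.p14, from 250 bases before to 50 after the start site) matched 8 of the 10 members, in 9 entries. They were searched on both strands for the X box core and for the Y box GATTGG, motifs that do not overlap. In the stretches below, on the minus strand of chromosome 6 and written 5′ to 3′, the capitals mark those motifs. The longer run of capitals is the X box core, searched with any base allowed at the second, the third and the sixth place, and the shorter run is the Y box.
HLA-DRB1, chr6:32589875-32589936: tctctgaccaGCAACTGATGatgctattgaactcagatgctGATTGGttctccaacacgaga
HLA-DQB1, chr6:32666726-32666787: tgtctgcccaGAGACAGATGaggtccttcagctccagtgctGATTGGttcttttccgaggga
HLA-DMA, chr6:32953158-32953219: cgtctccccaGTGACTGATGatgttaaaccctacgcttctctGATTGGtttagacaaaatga
HLA-DMB, chr6:32941064-32941125: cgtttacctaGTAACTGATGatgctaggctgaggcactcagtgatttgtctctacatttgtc
HLA-DOB, chr6:32817091-32817152: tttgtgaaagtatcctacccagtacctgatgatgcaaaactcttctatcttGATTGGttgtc

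HLA-DRB1 and HLA-DQB1 had 21 bases between the X core and the Y box, and HLA-DMA had 22. An X core followed by a Y box at 15 to 25 bases on 1 strand was found in 6 of 35116 promoters (0.0171%), those of HLA-DRB5, HLA-DRB1, HLA-DQB1, HLA-DMA, THRSP and HSP90B1. The X core alone was found in 2.33% of promoters and the Y box alone in 15.1%. HLA-DMB carried the X core, with a Y box only on the other strand, and HLA-DOB, a modulator of HLA-DM that is not a member, carried the Y box without the X core. So did HLA-DQA2, HLA-DQB2 and HLA-DOA, which are not members either. These letters were not in the windows of CD74, HLA-DQA1 and HLA-DPA1, and HLA-DPB1 had a Y box on the other strand only. A match of letters is a description and not a measured site.

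In parental SUDHL16, CIITA and the classical class II chains were at or near 0 outside CE-26 and low in it, whereas CD74 and HLA-DM were present, and in resistant SUDHL16 every classical chain except HLA-DQB1 was clearly detected. The members held 0.0392% to 0.0448% of all counts in the parental libraries and 0.143% to 0.174% in the resistant ones. In SUDHL6, all 10 genes were detected in all 6 libraries and the members' share was 0.339% to 0.346% in parental and 0.286% to 0.291% in resistant cells. In bulk RNA, fewer cells that express a gene and less RNA per cell cannot be told apart.

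**Figure D1:**
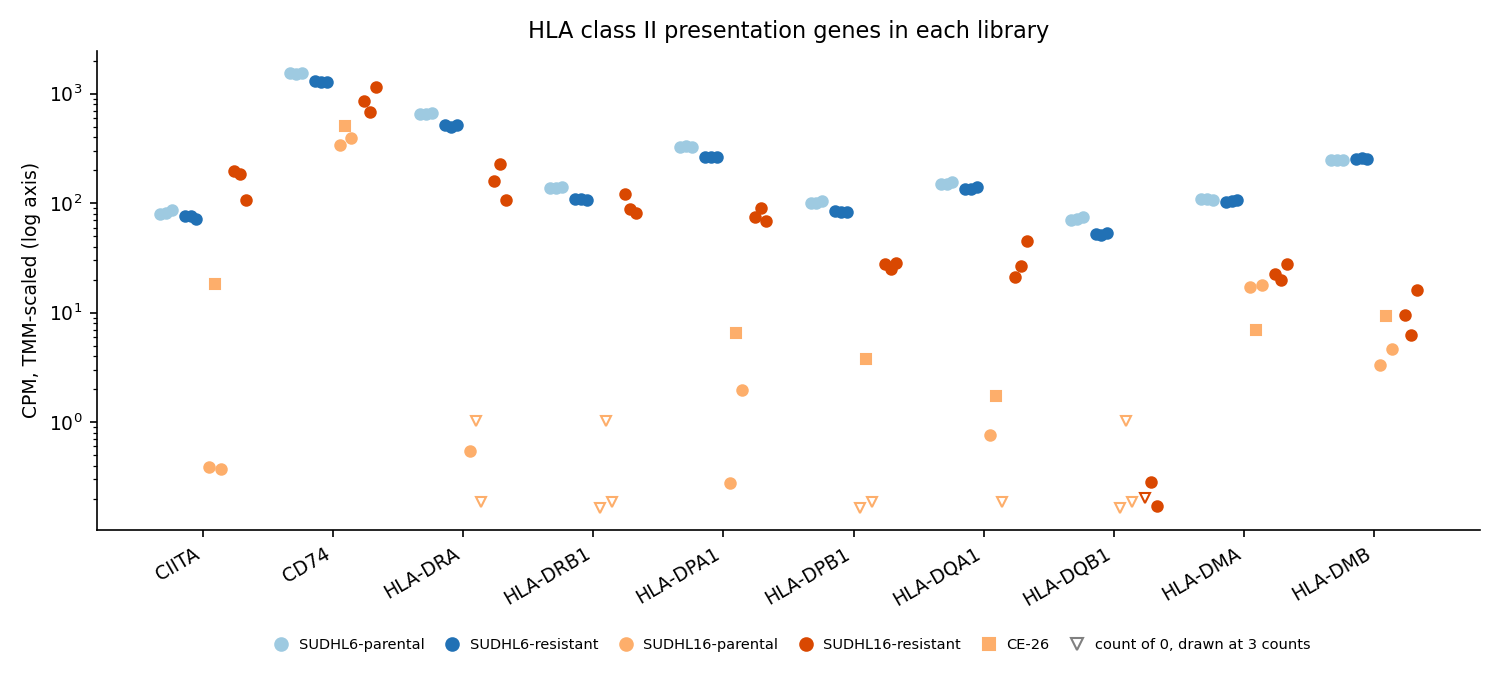
Level of each of the 10 HLA class II presentation genes in each of the 12 libraries, in TMM-scaled CPM on a log axis, coloured by group, with CE-26 as a square and counts of 0 as open triangles at the level of 3 counts. The SUDHL6 groups lie close together, whereas in SUDHL16 CIITA and the DR, DP and DQA1 chains are at 0 to 18.3 CPM in the parental and at 21.03 to 229 CPM in the resistant libraries, with HLA-DQB1 at 0 to 0.282 CPM in all 6.

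CIITA (ENSG00000179583, chr16:10866222-10943021, plus strand, 20 exons in the canonical transcript) is the master switch of the pathway. In SUDHL16-parental cells it had 7 reads in CE-25, 53 in CE-26 and 6 in CE-27, or 0.386, 18.3 and 0.372 CPM. The resistant libraries had 197, 186 and 107 CPM. The groups did not overlap, and the parental library nearest to the resistant ones was CE-26. The fitted log2 fold change was 5.14 ± 1.35 (SE), which was not called at the limits used here (adjusted p under 0.05 and at least 1.5-fold in edgeR's quasi-likelihood test). It was called with DESeq2, limma voom, library totals, no filter on low counts or a single fit of all 12 libraries, 5 of 7 alternatives. Without CE-26 it was 8.74 ± 0.47 and was called, and without CE-25 it was 4.37 and without CE-27 4.38, not called in either. In SUDHL6, CIITA stood at 80.3, 81.9 and 86.1 CPM in parental and at 75.9, 76.3 and 71.8 CPM in resistant cells, a difference of 1.11-fold (log2 -0.15 ± 0.03, SE). The SUDHL6 groups did not overlap either, but the gap was small. Of the 50-base windows of its canonical transcript, 15.2% also occur in another gene, nearly all in ENSG00000280153, an unconfirmed gene model inside CIITA on the same strand. That model had 0, 2 and 0 reads in parental and 202, 238 and 160 reads in resistant SUDHL16, the same direction as CIITA. DEXI lies on the opposite strand and shares 2424 exonic bases with CIITA, and its own level in SUDHL16 was 8.95 to 14.9 CPM in parental and 7.83 to 21.8 CPM in resistant libraries, which overlap.

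HLA-DRA (ENSG00000204287, chr6:32439878-32445046, plus strand, 5 exons) encodes the single alpha chain that pairs with all DR beta chains. Its SUDHL16-parental libraries held 10, 0 and 0 reads (0.551, 0 and 0 CPM), and the resistant libraries 160, 229 and 106 CPM. This was a log2 fold change of 9.28 ± 0.81 (SE), and 9.14 ± 0.79 without CE-26, called in both. Leaving out CE-26 thus made little difference to HLA-DRA, but the size of its fold rests on the 10 reads of CE-25. Without CE-25 the parental group was at 0 and the fitted value, then no bound, was 14.35, and without CE-27 it was 8.53, called in both. In SUDHL6 it was at 658, 658 and 674 CPM in parental and at 520, 495 and 519 CPM in resistant cells, 1.30-fold lower in the resistant line (log2 -0.37 ± 0.02, SE). No 50-base window of HLA-DRA is shared with another gene.

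HLA-DRB1 (ENSG00000196126, chr6:32577902-32589848, minus strand, 6 exons) encodes the main DR beta chain. No read was assigned to it in any SUDHL16-parental library, and 1810, 1889 and 1920 reads (121, 88.9 and 81.7 CPM) in the resistant ones. Set against a floor of 3 counts over the parental group, the resistant level was at least 1166-fold higher, and at least 1075-fold without CE-26. In SUDHL6, the parental libraries had 139, 137 and 140 CPM and the resistant ones 109, 109 and 107 CPM, 1.28-fold lower (log2 -0.36 ± 0.02, SE). HLA-DRB1 has near-identical relatives, and 9.97% of its 50-base windows are shared, mostly with HLA-DRB5, so reads could have been split or lost between them. HLA-DRB5 had 0 reads in each parental SUDHL16 library, and 113, 0 and 162 reads in the resistant libraries CE-28, CE-29 and CE-30. The pseudogene HLA-DRB6 was also at 0 in all 3 parental libraries and at 217, 209 and 366 reads in the resistant ones, at least 164-fold higher. It was called in edgeR with and without CE-26. Since HLA-DRB6 shares windows with HLA-DRB1, a member chosen by this contrast, its call is a description too and no p-value is given. The lone 0 of HLA-DRB5 in CE-29 stood beside 1889 reads of HLA-DRB1 in the same library.

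HLA-DPA1 (ENSG00000231389, chr6:33064569-33080775, minus strand, 6 exons) and HLA-DPB1 (ENSG00000223865, chr6:33075990-33089696, plus strand, 6 exons) encode the DP pair from opposite strands and overlap by 96 exonic bases. HLA-DPA1 was at 0.276, 6.54 and 1.99 CPM in parental and at 75.2, 90.3 and 68.6 CPM in resistant SUDHL16. Its log2 fold change was 5.18 ± 0.84 (SE), and 6.14 ± 0.63 without CE-26, called in both, and it was 4.42 without CE-25. HLA-DPB1 had 0, 11 and 0 reads in the parental libraries, all 11 in CE-26, and 27.7, 25.3 and 28.5 CPM in the resistant ones. With CE-26 its log2 fold change was 5.57 ± 1.49 (SE) and it was not called, nor was it without CE-25 (4.50) or CE-27 (4.54), but 5 of 7 alternatives called it. Without CE-26 it was called, and the resistant level was at least 310-fold higher than the floor of 3 counts. Both DP chains were therefore higher in all resistant libraries than in any parental one. In SUDHL6, HLA-DPA1 went from 327, 334 and 323 CPM to 262, 262 and 263 CPM, 1.25-fold lower (log2 -0.32 ± 0.02, SE). HLA-DPB1 went from 101, 101 and 104 CPM to 84.7, 82.3 and 82.4 CPM, 1.23-fold lower (log2 -0.29 ± 0.03, SE).

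HLA-DQA1 (ENSG00000196735, chr6:32628179-32647062, plus strand, 5 exons) encodes the DQ alpha chain. SUDHL16-parental libraries held 14, 5 and 0 reads, and the resistant libraries 21.03, 26.7 and 44.9 CPM. The log2 fold change was 5.69 ± 0.96 (SE), and 6.26 ± 0.86 without CE-26, called in both, and it was 4.87 without CE-27. SUDHL6 had 151, 150 and 155 CPM in parental and 135, 136 and 140 CPM in resistant cells, 1.11-fold lower (log2 -0.15 ± 0.03, SE). Of its windows, 9.64% are shared with HLA-DQA2, whose reads in SUDHL16 were 0 in every parental library and 122, 227 and 343 in the resistant ones. That was at least 144-fold higher, and edgeR called it with and without CE-26. Since HLA-DQA2 shares windows with a member chosen by this contrast, its call is a description too and no p-value is given.

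HLA-DQB1 (ENSG00000179344, chr6:32659467-32668383, minus strand, 5 exons), the partner of HLA-DQA1, was the exception in SUDHL16. It had 0 reads in each parental library and 0, 6 and 4 reads in the resistant libraries, or 0, 0.282 and 0.170 CPM, so it fell under the filter on low counts and was not tested. Against the floor of 3 counts over the parental group, its resistant level was 2.08-fold higher, and 1.91-fold without CE-26. These values make no allowance for the counting error of the 10 resistant reads, so no difference is read from them. These few reads leave the gene close to the limit of detection in both groups. In SUDHL6 the same gene was well expressed, at 69.9, 71.9 and 74.4 CPM in parental and 52.2, 51.3 and 53.3 CPM in resistant cells. That was 1.38-fold lower (log2 -0.46 ± 0.03, SE), the widest gap of the 10 genes in that line. Of its windows, 5.01% are shared with HLA-DQB2, which had 0, 10 and 0 reads in parental and 0, 5 and 0 in resistant SUDHL16. HLA-DQB1-AS1, on the opposite strand with 241 shared exonic bases, had no read in any SUDHL16 library.

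CD74 (ENSG00000019582, chr5:150401637-150412969, minus strand, 9 exons) lies outside the HLA region and was the most abundant member in every group. Parental SUDHL16 had 342, 512 and 395 CPM, and resistant SUDHL16 had 859, 682 and 1152 CPM. The groups did not overlap, and the log2 fold change of 1.11 ± 0.32 (SE) was not called, though DESeq2, limma voom and the single fit of all 12 libraries called it. Without CE-26 it was 1.30 ± 0.28 and was called. CD74 was thus already abundant in cells with almost no classical chain. Its difference was far smaller than those of the classical chains other than HLA-DQB1, which was not tested. In SUDHL6 it was at 1537, 1509 and 1563 CPM in parental and 1305, 1277 and 1278 CPM in resistant cells, 1.19-fold lower (log2 -0.26 ± 0.02, SE). No window of CD74 is shared with another gene.

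HLA-DMA (ENSG00000204257, chr6:32948613-32969094, minus strand, 5 exons) and HLA-DMB (ENSG00000242574, chr6:32934629-32941028, minus strand, 6 exons) were detected in all 12 libraries. In SUDHL16, HLA-DMA was at 17.2, 6.89 and 17.9 CPM in parental and 22.5, 19.7 and 27.6 CPM in the resistant line, with a log2 fold change of 0.70 ± 0.38 (SE), and of 0.42 ± 0.26 without CE-26. HLA-DMB was at 3.36, 9.30 and 4.66 CPM in parental and 9.51, 6.26 and 16.2 CPM in the resistant line, with a log2 fold change of 0.93 ± 0.54 (SE), and of 1.42 ± 0.48 without CE-26. Neither was called with or without CE-26, and HLA-DMB was the member whose SUDHL16 groups overlapped, through CE-26. In SUDHL6, HLA-DMA was at 110, 109 and 107 CPM and then 104, 106 and 106 CPM (log2 -0.05 ± 0.03, SE). HLA-DMB, at 247, 246 and 246 CPM in parental and 254, 260 and 256 CPM in resistant SUDHL6 (log2 0.06 ± 0.02, SE), was the member that was higher in that resistant line. A read-through gene model spanning both, ENSG00000248993, shares 30.1% of the windows of HLA-DMB and 9.58% of those of HLA-DMA, and held at most 4 reads in any library.

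**Figure D2:**
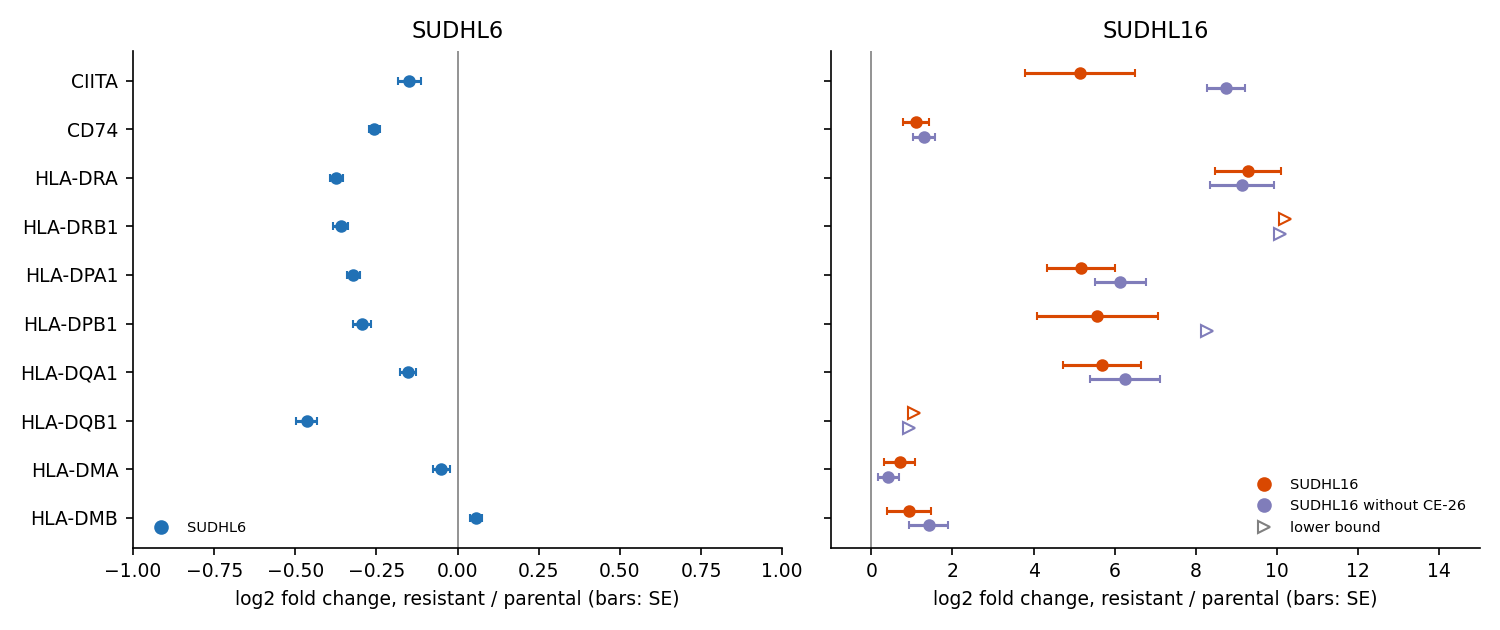
Log2 fold change of each member between resistant and parental cells, with bars of 1 SE, in SUDHL6 (left, all libraries) and SUDHL16 (right, with and without CE-26), with open triangles for lower bounds where all parental libraries were at 0. In SUDHL6 the values lie between -0.46 and 0.06, and in SUDHL16 they run from 0.70 for HLA-DMA to 9.28 for HLA-DRA with all libraries and from 0.42 to 9.14 for the same genes without CE-26, with HLA-DRB1 at bounds of 10.2 and 10.1.

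Counted over the group, 4 of the 9 members tested in SUDHL16 were called higher, HLA-DRA, HLA-DRB1, HLA-DPA1 and HLA-DQA1, beside 3.2% called higher and 2.1% called lower of all 15708 genes tested. Since the members were chosen by this contrast, nothing is read from that count. In 8 of the 9 the groups did not overlap, all higher in resistant cells, beside 14.6% of all genes higher and 11.9% lower. Their median log2 fold change was 5.18, with HLA-DRB1 at its bound, beside -0.02 over all genes. Without CE-26, 7 of 9 were called, with CIITA, CD74 and HLA-DPB1 added, beside 6.73% higher and 3.32% lower of 16280 genes, and the median was 6.26, with HLA-DRB1 and HLA-DPB1 at their bounds. Without any 1 of the resistant libraries CE-28, CE-29 or CE-30, only HLA-DRA and HLA-DRB1 were called, 2 of 9, beside 318 of 16871, 279 of 16744 and 324 of 16572 genes in either direction. In SUDHL6, 0 of 10 were called, beside 4.31% higher and 4.65% lower of 16662 genes. The SUDHL6 libraries were tightly spaced (a biological coefficient of variation of 0.0516, against 0.468 in SUDHL16), and 9 members did not overlap between the groups and were lower while HLA-DMB was higher, beside 24.8% of all genes lower and 23.1% higher. The members' median in SUDHL6 was -0.28, and none of the 10 reached a 1.5-fold difference.

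The difference between the 2 lines was large for most members and was not tested for them. SUDHL16 minus SUDHL6, the log2 fold changes differed by 9.65 for HLA-DRA, 5.86 for HLA-DPB1, 5.84 for HLA-DQA1, 5.50 for HLA-DPA1, 5.29 for CIITA and at least 10.5 for HLA-DRB1. For CD74, HLA-DMA and HLA-DMB the differences were 1.37, 0.75 and 0.88. Without CE-26 they ran from 0.47 for HLA-DMA to 9.51 for HLA-DRA, with HLA-DRB1 at a bound of 10.4, and the difference of CIITA was 8.88. Over all genes, the interaction term of a fit of all 12 libraries was called for 7.16%, and for 13.4% without CE-26.

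Per length of the canonical transcript (RPKM, TMM-scaled), the order of the members differed between the lines. In parental SUDHL6 the levels were CD74 929 ± 16, HLA-DRA 537 ± 7.4, HLA-DPA1 193 ± 3.3 and HLA-DMB 183 ± 0.24 RPKM (SD, n = 3). They were followed by HLA-DRB1 at 113, HLA-DMA at 99.7, HLA-DQA1 at 96.7, HLA-DQB1 at 44.9, HLA-DPB1 at 25.5 and CIITA at 5.15 RPKM, of which HLA-DMA and HLA-DQA1 are neighbours within about their spread (SD 1.35 and 1.78). The CIITA value rests on a canonical model of 16061 bases, the longest of the 10. In resistant SUDHL16 the order was CD74 at 543 ± 144, HLA-DRA at 134 ± 50, HLA-DRB1 at 79.5 ± 17 and HLA-DPA1 at 45.8 ± 6.5 RPKM (SD, n = 3). Then came HLA-DMA at 21.3 ± 3.7, HLA-DQA1 at 19.6 ± 7.9, CIITA at 10.2 ± 3.0, HLA-DMB at 7.90 ± 3.7, HLA-DPB1 at 6.81 ± 0.42 and HLA-DQB1 at 0.0940 ± 0.089 RPKM, with HLA-DMA and HLA-DQA1, and CIITA, HLA-DMB and HLA-DPB1, within their spread of each other. In parental SUDHL16, CD74 stood at 252 ± 53, HLA-DMA at 12.8 ± 5.7 and HLA-DMB at 4.28 ± 2.3 RPKM (SD, n = 3), and the other members at 0 to 1.72 RPKM. Without CE-26 the same order held for these 3, at 223, 16.1 and 2.97 RPKM. HLA-DMB thus stood above HLA-DRB1 and HLA-DMA in SUDHL6 and below both in resistant SUDHL16.

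The balance within each pair of chains was therefore compared as a ratio per length. HLA-DRB1 to HLA-DRA was 0.211 ± 0.0018 in parental and 0.213 ± 0.0071 in resistant SUDHL6, and 0.645 ± 0.22 in resistant SUDHL16 (SD, n = 3). HLA-DPB1 to HLA-DPA1 was 0.133 ± 0.0044, 0.135 ± 0.0024 and 0.151 ± 0.029 in the same groups. The DR and DP ratios were thus alike within their spread between parental and resistant SUDHL6, although every one of the 4 chains was lower in the resistant line. HLA-DQB1 to HLA-DQA1 was 0.464 ± 0.0092 in parental and 0.374 ± 0.0042 in resistant SUDHL6, with no overlap, and 0.00470 ± 0.0053 in resistant SUDHL16. HLA-DMB to HLA-DMA was 1.83 ± 0.023 in parental and 1.98 ± 0.022 in resistant SUDHL6, and 0.358 ± 0.11 in resistant SUDHL16. Ratios across the lines also differ by kit.

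The DNA-bound factors that CIITA docks on and its coactivators (RFX5, RFXAP, RFXANK, NFYA, NFYB, NFYC, CREB1, CREBBP, EP300 and KAT2B) were tested as a list of 10. In SUDHL16, 0 of 10 were called by edgeR, DESeq2 or limma voom, beside 3.2% higher and 2.1% lower of all 15708 genes in edgeR. Without CE-26 edgeR also called 0, beside 6.73% and 3.32%. An unadjusted p under 0.05 in edgeR was reached by 0 of the 10, beside 3002 of all genes. Without CE-26 it was reached by 0 as well, beside 3789 of 16280. The factors' median log2 fold change was 0.25, beside -0.02 over all genes, and 0.26 beside 0.05 without CE-26. The genes of the RFX complex, whose loss causes inherited class II deficiency, were present in parental SUDHL16. RFX5 was at 132, 45.8 and 111 CPM in parental and 95.4, 88.9 and 110 CPM in resistant cells (log2 0.02 ± 0.37, SE, adjusted p = 0.985, edgeR), and without CE-26 the value was -0.30 ± 0.21 (adjusted p = 0.469). RFXAP was at 15.1, 4.48 and 18.3 CPM and then at 19.1, 30.6 and 21.6 CPM (log2 0.87 ± 0.47, adjusted p = 0.364, edgeR, and 0.52 ± 0.29 without CE-26). The RFXANK log2 fold change was 0.39 ± 0.32 (adjusted p = 0.578, edgeR), and 0.44 ± 0.34 without CE-26. The factors were thus expressed where the classical chains were not. In SUDHL6 0 of 10 were called by any of the 3 tools, beside 4.31% higher and 4.65% lower of all genes in edgeR. All 10 were under 1.5-fold, such as RFX5 at log2 0.26 ± 0.03 (SE). An unadjusted p under 0.05 was reached by 7 of the 10, beside 7523 of all 16662 genes tested in that line.

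**Figure D3:**
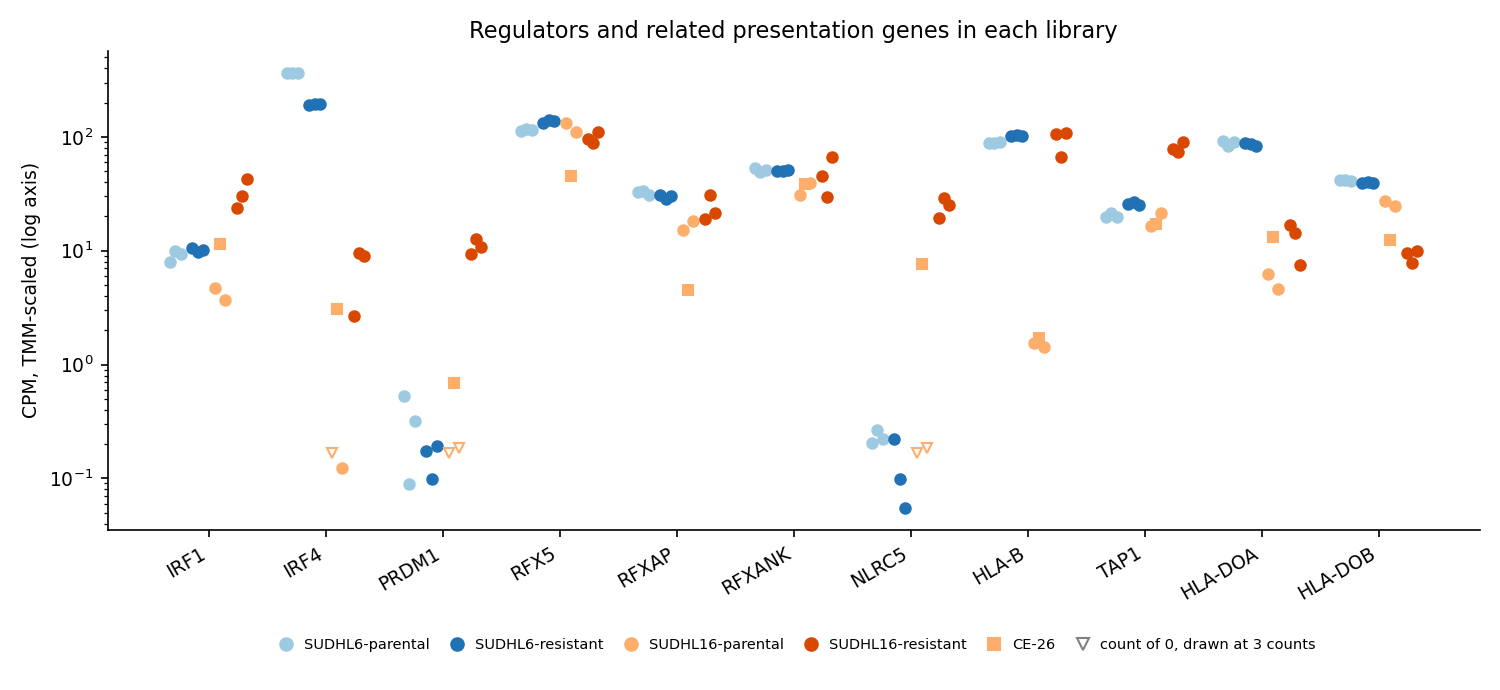
Levels of regulators of CIITA, RFX subunits and related presentation genes in each of the 12 libraries, in TMM-scaled CPM on a log axis, drawn as in the plot of the members. PRDM1, IRF1, RFXAP, NLRC5, HLA-B and TAP1 are higher in all 3 resistant than in all 3 parental SUDHL16 libraries and HLA-DOB is lower, whereas IRF4, RFX5, RFXANK and HLA-DOA overlap.

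Of 11 genes known to act on CIITA, 2 were called higher and 0 lower in resistant SUDHL16, beside 3.2% and 2.1% of all genes. Without CE-26, 3 were called higher, beside 6.73%. With all libraries, 10 of the 11 had a log2 fold change above 0. In 5 the groups did not overlap and were higher, beside 14.6% of all genes. IRF1, an interferon-induced activator of the CIITA gene, was at 4.68, 11.4 and 3.66 CPM in parental and 24.0, 30.4 and 42.6 CPM in the resistant line, with a log2 fold change of 2.40 ± 0.47 (SE, adjusted p = 0.0248, edgeR) that was 2.96 ± 0.35 (adjusted p = 0.00137) without CE-26. PRDM1, the plasma cell factor BLIMP1 that is known to repress CIITA, had 2 reads over all parental libraries, both in CE-26, and 663 over the resistant ones. The ratio of these summed counts, each set over the summed library sizes of its group, was 206. Its 95% exact interval of counting error was 56.9 to 1708 (adjusted p = 0.0169 in edgeR). Without CE-26 PRDM1 was at 0 in parental cells and at least 127-fold higher in resistant ones (adjusted p = 0.000383). A known activator and a known repressor of CIITA were thus both higher in the line in which CIITA was higher. Leaving out 1 library at a time, the IRF1 call was lost without CE-25, CE-27, CE-28, CE-29 or CE-30, with an adjusted p of up to 0.111, and the PRDM1 call without CE-28, CE-29 or CE-30, with one of up to 0.122.

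IRF4, a B cell and plasma cell factor, differed between the lines (interaction adjusted p = 0.0126, edgeR). In SUDHL6 it fell by 0.92 on the log2 scale (SE 0.02, adjusted p = 7.91e-12, edgeR), from 368, 368 and 363 CPM to 192, 195 and 195 CPM. The call was lost in the single fit of all 12 libraries, which called 140 of 19621 genes in SUDHL6. The fit of SUDHL6 alone called 1493 of 16662. In SUDHL16 IRF4 had 0, 9 and 2 reads in parental and 2.68, 9.51 and 9.02 CPM in resistant cells. It was not called with CE-26 (log2 3.26 ± 1.51, adjusted p = 0.290, edgeR), though limma voom and the single fit of all 12 libraries called it. Without CE-26 it was called (adjusted p = 0.00536, edgeR). The ratio of its summed counts, each over the summed library sizes, was then 130 (95% exact interval of counting error 35.9 to 1079). The log2 fold change of IRF4 in SUDHL16 fell as low as 2.43 with 1 library left out. IRF2, IRF8, SPI1, PAX5, EBF1, EZH2 and FBXO11 were not called in either line, in SUDHL16 with or without CE-26, except that the single fit of all 12 libraries called IRF2 higher there. The list's median was 0.54 in SUDHL16, 0.28 there without CE-26, and 0.06 in SUDHL6.

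Of the 10 genes of class II loading and turnover, 7 were tested in SUDHL16. With all libraries edgeR called 0 of them, beside 3.2% higher and 2.1% lower of all 15708 genes. An unadjusted p under 0.05 was reached by 1, beside 3002 of all genes. DESeq2 called 1 of the list lower, beside 1775 of all 15708 genes in either direction. Of the list, limma voom called 1 lower and 1 higher, beside 2648 of all 15708. The list's gene under 0.05 was HLA-DOB, the beta chain of the HLA-DM inhibitor HLA-DO. It stood at 27.5, 12.4 and 24.9 CPM in parental and 9.65, 7.86 and 9.95 CPM in resistant SUDHL16, log2 -1.25 ± 0.36 (SE, adjusted p = 0.0938, edgeR), and without CE-26 it fell by 1.51 (SE 0.27, adjusted p = 0.01005). HLA-DOB thus went the opposite way from the classical chains. Its partner HLA-DOA was at 6.23, 13.1 and 4.59 CPM in parental and 16.8, 14.4 and 7.44 CPM in resistant cells (log2 0.74 ± 0.51, adjusted p = 0.490, edgeR). Without CE-26 its groups did not overlap, and the value was 1.26 ± 0.43 (adjusted p = 0.115, edgeR). It was the gene that limma voom called higher. CTSS, the protease that trims CD74, was at 72.4, 240 and 80.1 CPM in parental and 99.0, 55.9 and 41.8 CPM in resistant SUDHL16 and was not called (log2 -0.99 ± 0.52, adjusted p = 0.351). The high CTSS value was that of CE-26, and without it the log2 fold change was -0.20 ± 0.35.

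In SUDHL6, 8 of the 10 loading and turnover genes were tested. Of these, 0 were called higher and 1 lower, beside 4.31% and 4.65% of all 16662 genes. IFI30, the thiol reductase GILT of the endosome, fell by 0.71 on the log2 scale (SE 0.21, adjusted p = 0.0193, edgeR), from 277, 270 and 255 CPM to 250, 125 and 113 CPM. The resistant library CE-10 stood near the parental level, and the call was lost without CE-7, CE-8, CE-11 or CE-12, with an adjusted p of up to 0.0838, and with DESeq2, without the filter on low counts and in the single fit of all 12 libraries. CTSS was 1.31-fold higher (log2 0.39 ± 0.03, SE), short of 1.5-fold. HLA-DOA (log2 -0.05 ± 0.04, adjusted p = 0.316) and HLA-DOB (log2 -0.07 ± 0.04, adjusted p = 0.161) were not called.

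The class I pathway, which presents cytosolic peptides through another transactivator, NLRC5, served as the comparison. In SUDHL16, 2 of its 10 genes were called higher and 0 lower, beside 3.2% and 2.1% of all genes tested. The list's median was 0.44, beside -0.02 over all genes. Without CE-26, 4 were called higher and 0 lower, beside 6.73% and 3.32%, with a median of 0.69 beside 0.05. HLA-B rose from 1.54, 1.72 and 1.43 CPM to 105, 66.2 and 109 CPM, a log2 fold change of 5.93 ± 0.33 (SE, adjusted p = 0.000302, edgeR) that was 5.98 ± 0.37 without CE-26. The peptide transporter gene TAP1 rose by 2.12 ± 0.23 (SE, adjusted p = 0.00176), and by 2.09 ± 0.24 without CE-26. NLRC5 had 0, 22 and 0 parental reads, all in CE-26, against 19.2, 28.99 and 25.4 CPM in resistant cells. With CE-26 it was not called (log2 3.91 ± 1.61, adjusted p = 0.231, edgeR), except by limma voom and without the filter on low counts, and without CE-26 it was called and at least 287-fold higher (adjusted p = 0.000165). With 1 library left out, the log2 fold change of NLRC5 fell as low as 3.06. HLA-C, HLA-E and B2M were not called with or without CE-26, and edgeR called HLA-F without it (log2 3.84 ± 0.66) but not with it, where limma voom did. In SUDHL6, where the class II members other than HLA-DMB were lower, all 9 class I genes tested had a positive log2 fold change, with no overlap between groups, beside 23.1% of all genes that were higher without overlap. Of the 9, 0 were called by edgeR, DESeq2 or limma voom, beside 4.31% higher and 4.65% lower of all genes in edgeR. An unadjusted p under 0.05 was reached by 8, beside 7523 of all 16662 genes, and the list's median was 0.17.

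**Figure D4:**
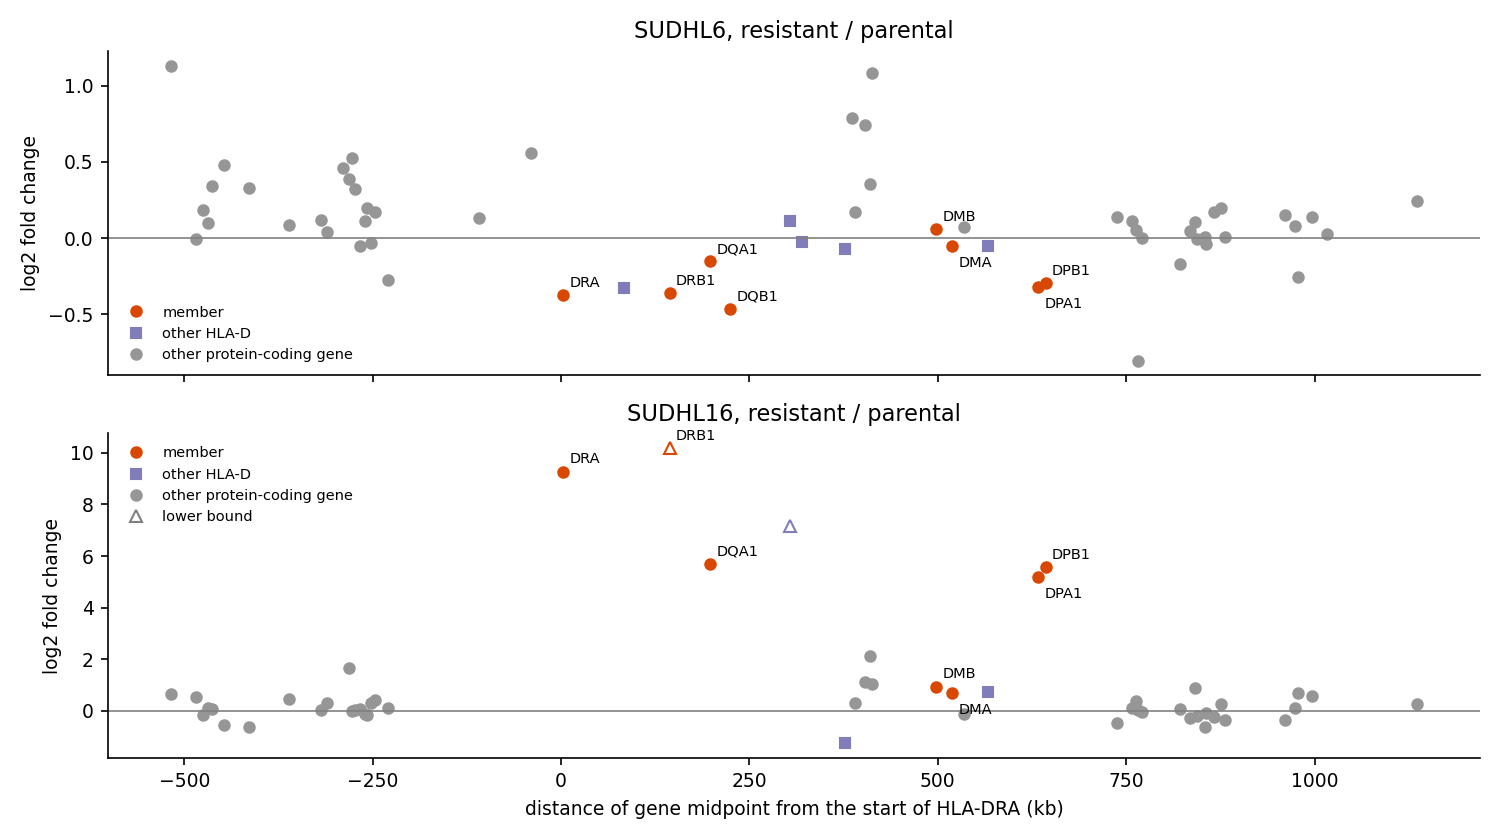
Log2 fold change between resistant and parental cells for protein-coding genes in and around the class II region, against the distance of the gene midpoint from the start of HLA-DRA in kb, for SUDHL6 (top) and SUDHL16 (bottom), with open triangles for lower bounds. In SUDHL16, with all libraries, the classical chains other than HLA-DQB1, which was not tested there and is not drawn, stand at 5.18 to 10.2, whereas the genes to each side have a median of 0.06.

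Of the members, 8 lie in 1 stretch of chromosome 6, and the genes between and beside them were examined next. In chr6:32439878-33089696 (GRCh38), from HLA-DRA to HLA-DPB1, there are 7 protein-coding genes that are not HLA-D genes. In SUDHL16, 5 were tested and TAP1 was called, with a median of 1.04 (1.18 without CE-26), and within 0.5 Mb to each side 38 genes were tested, with a median of 0.06 (0.15 without CE-26). Of those 38, edgeR called 0 with all libraries (3 had an unadjusted p under 0.05), DESeq2 called 1 and limma voom 3. Without CE-26 edgeR called 2 of 39. Beside these, of all 15708 genes, edgeR called 833 in either direction, DESeq2 1775 and limma voom 2648. Without CE-26 edgeR called 1636 of 16280. An unadjusted p under 0.05 was reached by 3002 of the 15708. BRD2, which lies beside HLA-DMA, was at log2 -0.14 in SUDHL16, and at -0.32 without CE-26. In SUDHL6, 2 of 6 were called higher, the immunoproteasome genes PSMB8 (log2 0.74) and PSMB9 (log2 1.08), among classical chains that were all lower. In the flanks 1 of 42 was called higher and 1 lower. Of all 16662 genes tested in that line, 4.31% were called higher and 4.65% lower. PSMB8 and PSMB9 were named after their values were seen.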

How the data were processed

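The 12 samples are RNA-sequencing libraries of cell lines. Per the labels and the methods of the study, the authors trimmed adapters with Trim Galore, aligned reads to GRCh38 with HISAT2 and assembled transcripts with StringTie, and deposited raw counts of reads per Ensembl gene, with no normalization. The counter, annotation and strand setting are not given in the sources used here, nor how reads of HLA alleles unlike the reference were treated, so reads of paralogs and overlapping genes may be split or lost. Of 60675 IDs, 56558 matched GENCODE release 44, which gave symbols, positions and lengths, and no pair of libraries was identical.

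Each line was fitted alone in edgeR 4.0.16 (R 4.3.3) with filterByExpr, TMM and the two-sided quasi-likelihood test. Called means a Benjamini-Hochberg adjusted p, over all genes tested, under 0.05 and at least 1.5-fold, limits that follow the study. The interaction came from 1 fit of all 12 libraries. Levels are TMM-scaled CPM, and a zero was set against 3 counts over the group. Such floors and the 95% exact intervals cover counting error only. Sequences are RefSeq promoters (GRCh38.p14), and shared windows are 50 bases of GENCODE transcripts. The members, the gene lists and the markers were chosen with earlier results of these data known.

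The named genes are the members, the other HLA-D genes, a set of genes always given, up to 5 called genes of each list and line, and the 5 genes most alike to the members. Some results under this rule are not reported here. Alternatives were DESeq2 1.42.0, upper-quartile scaling, library totals, no filter, a joint fit of both lines, a table of protein-coding genes alone, limma 3.58.1 voom with sample weights, and leaving out every library once. The fits were tested on simulated data, in which the smaller of the planted changes were mostly missed at the spread of SUDHL16. The other steps ran in Python 3.11.15 (matplotlib 3.10.9, scipy 1.17.1, numpy 2.4.6, pandas 2.3.3).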

Additional observations from a re-analysis of the deposited data

Results flagged for a closer look

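For 8 members every group difference in SUDHL16 went one way and that in SUDHL6 the other, with no overlap between resistant and parental libraries in either line. Over all genes, 14.6% were higher without overlap in resistant SUDHL16 and 24.8% lower in resistant SUDHL6. The share that did both is not given here. The 8 members were higher in resistant SUDHL16 and lower in resistant SUDHL6, and the difference between the lines was not tested for them, since they were chosen by these contrasts. As log2 fold changes, SUDHL16 minus SUDHL6, it was 5.29 for CIITA, 1.37 for CD74, 9.65 for HLA-DRA, at least 10.5 for HLA-DRB1, 5.50 for HLA-DPA1, 5.86 for HLA-DPB1, 5.84 for HLA-DQA1 and 0.75 for HLA-DMA. Without CE-26 these values were 8.88, 1.55, 9.51, at least 10.4, 6.46, at least 8.57, 6.41 and 0.47.

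For 5 genes of the pathway lists the test of the difference itself, the interaction in edgeR over all 12 libraries, passed. These were 5 of the 39 list genes tested in that fit, beside 7.16% of all 19621 genes. HLA-B differed by 5.75 ± 0.28 (SE, adjusted p = 1.29e-06), TAP1 by 1.80 ± 0.21 (adjusted p = 0.000372), IRF1 by 2.34 ± 0.46 (adjusted p = 0.00944), IRF4 by 5.26 ± 1.09 (adjusted p = 0.0126) and PRDM1 by 8.22 ± 1.47 (adjusted p = 0.00535), all higher in SUDHL16. The fitted value of PRDM1 rests on 2 parental SUDHL16 reads and is not a bound. Without CE-26 all 5 passed as well, with adjusted p from 6.45e-07 for HLA-B to 0.000281 for IRF1 (edgeR), and 6 more genes of these lists passed, beside 13.4% of all genes. They were NLRC5 (adjusted p = 2.12e-05), HLA-F (adjusted p = 0.000964), NFYB (adjusted p = 0.0137) and HLA-DOA (adjusted p = 0.0378), with the higher log2 fold change in SUDHL16, and HLA-DOB (adjusted p = 0.000193) and RFX5 (adjusted p = 0.0321), with the lower one. Kit and instrument differ between the lines and cannot be told apart from them here.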

How the results depend on the processing

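No paired analysis was possible because the labels give no replicate numbers, only library names, and the numbers assigned here follow accession order and pair nothing. In SUDHL6 the members called stayed at 0 in every alternative, and each member kept its direction. In SUDHL16 each tested member kept its direction in all alternatives, but the number called was 7 with limma voom and with a single fit of all 12 libraries, and 2 to 7 when 1 library was left out. Over all genes, in either direction, the calls moved as well. They went from 833 of 15708 to 1775 of 15708 with DESeq2, 2648 of 15708 with limma voom and 2855 of 19621 with the single fit. With 1 library left out they were 279 to 1636. CIITA regulators called higher in SUDHL16 were 4 with the single fit and 0 to 3 with 1 library left out. Class I genes called higher were 4 with limma voom and 2 to 4 with 1 library left out. Loading and turnover genes called lower in SUDHL16 were 1 with DESeq2, the single fit, protein-coding genes only and limma voom, and 0 to 1 with 1 library left out, and 1 was called higher with limma voom. In SUDHL6, CIITA regulators called lower were 0 with the single fit, and loading and turnover genes called lower were 0 with DESeq2, without the filter and with the single fit, and 0 to 1 with 1 library left out. Of all genes in SUDHL6, the single fit called 140 of 19621, against 1493 of 16662 in the fit of that line alone. DESeq2 called 1307 of 16662 there, and 1354 of 33151 were called without the filter. Among the genes followed through every alternative, the uncalled ones that changed sign were RFXANK in SUDHL6 (-0.0484 to 0.0112 with 1 library left out, above 0 without CE-7), RFX5 in SUDHL16 (-0.0489 with upper-quartile scaling, -0.0239 with protein-coding genes only, -0.25 with limma voom, -0.30 to 0.32 with 1 library left out, -0.30 without CE-26 and -0.07 without CE-30) and IFI30 in SUDHL16 (0.0196 with library totals, 0.12 with limma voom, -0.45 to 0.26 with 1 library left out, 0.26 without CE-26). Of the other pathway genes, EBF1 (0.10 to -0.03), EZH2 (0.09 to -0.01) and MARCHF8 (0.05 to -0.13) changed sign in SUDHL16 without CE-26, all uncalled. The causes were not tested. Library totals moved the median of all genes by 0.13 on the log2 scale in SUDHL16, and dropping the filter by 0.11. Depth limits how low the parental SUDHL16 chains can be measured, where 1 read of CE-26 weighs most. Why HLA-DQB1 had so few reads in SUDHL16 was not tested.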

Other observations

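The protein-coding genes whose log2 CPM, centred within each line, followed the mean of the members most closely over the 12 libraries were BCL7A (Pearson r 0.996), EHD3 (0.994), ZMIZ1 (0.993), SYTL1 (0.993) and ZNF532 (0.992), of 9964 genes compared. These values share libraries, depth and the step between the SUDHL16 groups, so they describe likeness only. BCL7A, a subunit of chromatin remodelling complexes, stood at 8.94 ± 3.04 CPM in the parental and at 104 ± 5.9 CPM in the resistant SUDHL16 line (SD, n = 3), and at 357 ± 6.2 and 354 ± 5.6 CPM in SUDHL6. SYTL1, a vesicle trafficking protein, was at 2.30 ± 1.31 and 78.9 ± 10.0 CPM in SUDHL16, and at 72.1 ± 1.8 and 78.4 ± 0.71 CPM in SUDHL6, so there it was higher in the resistant line, where 9 of the 10 members were lower. ZNF532 was at 6.48 ± 2.70 and 49.5 ± 3.9 CPM in SUDHL16 and at 147 ± 2.3 and 123 ± 1.2 CPM in SUDHL6. EHD3, an endosomal recycling protein, was at 10.9 ± 4.3 and 74.7 ± 6.9 CPM in SUDHL16 and at 0.142 and 0.111 CPM in SUDHL6, where the members are abundant.

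ZMIZ1, a transcriptional coregulator, was at 7.56 ± 4.54 and 207 ± 3.6 CPM in SUDHL16 and went from 32.5 ± 1.4 to 17.8 ± 0.72 CPM in SUDHL6 (SD, n = 3), so like the members it was higher in one resistant line and lower in the other.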
